A study of Salmo salar with 45 samples.

Results

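The distal intestine of Atlantic salmon fed LP100 was compared with that of salmon fed LP20, 2 diets that differ in how much of the same heat-killed lactic acid bacterium they carried. The LP20 group was fed 20 mg per kg feed and the LP100 group 100 mg per kg feed of Feed LP20, a product of heat-killed *Lactiplantibacillus plantarum* L-137 (HK L-137) carried in tapioca dextrin, for 61 days. The 9 LP100 fish and the 9 LP20 fish, chosen by their diet labels, are 18 of the 45 fish in the series, and the control fish were not used. All were pre-smolts kept in fresh water, and all 18 received HK L-137, so the comparison concerns the dose and not the presence of the additive. The feeds were analysed separately, and crude lipid was lower in the LP100 feed than in the LP20 feed, which cannot be told apart from the inclusion level. The methods give 3 tanks per diet with 3 fish sampled from each, and the labels show 3 runs of 3 consecutive fish numbers per diet, but neither ties a run to a tank, so p-values measure the spread between fish as if each were independent.

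Heat-killed lactic acid bacteria do not colonise the gut. Their cell wall components, among them lipoteichoic acid and peptidoglycan, are bound by pattern recognition receptors of epithelial and immune cells, which signal through NF-kB to cytokine genes. The distal intestine of salmon is also the site where large enterocytes take up intact protein into lysosomes, recover bile acids and meet a dense population of intraepithelial and lamina propria lymphocytes.

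The fragments counted on genes numbered 9660750 to 16541068 per LP20 fish and 13752864 to 17435966 per LP100 fish. Of the 69389 genes in the tables, 29676 passed the filter on low counts and were tested. Neither the total count of tested genes nor the first or second principal component separated the diets (exact permutation test over 48620 regroupings, two-sided, p = 0.395, 0.204 and 0.984, adjusted over 4 tests 0.526, 0.407 and 0.984). The TMM scaling factor averaged 0.986 ± 0.0178 in LP20 and 1.02 ± 0.0447 in LP100 (SD, n = 9 each, exact permutation p = 0.0772, adjusted p = 0.309). The distal gut genes *cubn* and *slc10a2* were found in all 18 libraries, at their lowest in LP20 fish 5. The exocrine pancreas list of 14 symbols matched 2 genes, of which 0 were tested, so it cannot show whether pancreas RNA was present.

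LP20 fish 5 went against its label as distal intestine. The posterior Hox genes, transcription factors that mark the hind end of the body and gut, summed to a CPM (counts scaled to a common library size) of 5.04 in LP20 fish 5, against 72.3 to 339 in the other 8 LP20 fish and 93.3 to 263 in the LP100 fish. Of 11 such genes tested, 8 had a count of 0 in this library, which allows a level of up to 0.222 CPM, counting error only. For *hoxa13aa* the other 8 LP20 fish ranged from 12.1 to 46 CPM and the LP100 fish from 10 to 34.9. Not every gene of the list set this fish apart, since *hoxb13ab* was also at 0 CPM in LP20 fish 7 and at 0.207 CPM in LP100 fish 1. In LP20 fish 5, genes of the foregut end of the intestine ran the other way.

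The peptide transporter *slc15a1* (PepT1) was at 119 CPM in LP20 fish 5 and at no more than 3.28 CPM in the other 17. The disaccharidase *si* (sucrase-isomaltase) was at 1040 CPM against 60.1 to 107 in the other 17 fish. The HDL apolipoprotein *apoa1* was at 10094 CPM against 354 to 3390. The library thus held high levels of genes of lipid and peptide absorption together with the lowest level in the comparison of the ileal bile acid transporter *slc10a2*, 525 CPM against 889 to 2214. Distal genes were thus lower but not absent, and the cubilin gene *cubn* was at 2484 CPM against 2694 to 4023 in the other 17. All 8 genes of the proximal gut list were highest in this fish, and the list summed to 11643 CPM there and to 438 to 3529 CPM elsewhere. Both lists were written after the values had been seen. The fish was kept in the main test, and the calls and many of the values below are given with and without it.

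**Figure D1:**
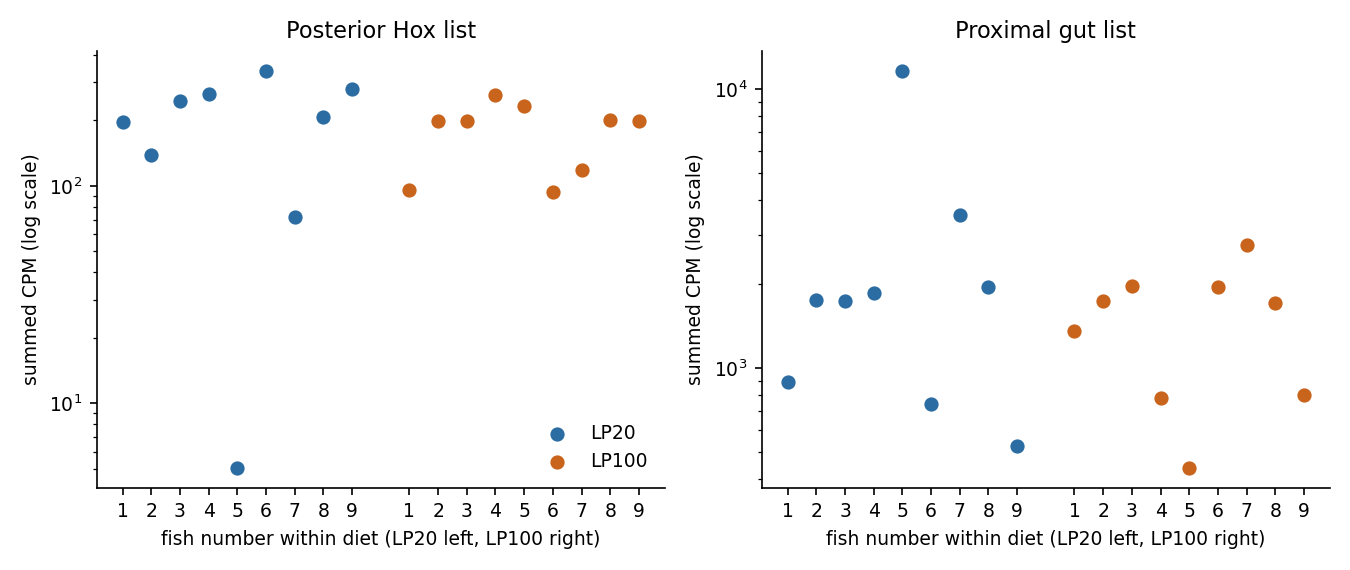
Summed CPM of the posterior Hox list (left) and of the proximal gut list (right), on log axes, for each of the 9 LP20 fish (blue) and 9 LP100 fish (orange). LP20 fish 5 lies at 5.04 CPM in the left panel and at 11643 CPM in the right panel, apart from all the other fish.

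LP20 fish 4 and LP100 fish 7 stood apart in another way, with little connective tissue and muscle RNA. They had the lowest levels of the fibroblast and matrix list (80.1 and 74.8 summed CPM, against 159 to 738 in the other 16), which holds collagens, fibronectin and lumican. The smooth muscle list was also lowest in these fish, at 651 and 662 summed CPM against 936 to 2159. Both had the highest scores on the first principal component (80.5 and 75.1), which held 19.9% of the variance and whose other end was led by genes of connective tissue and vessels such as *dpt*, *col1a1a*, *lum*, *col6a1* and *pecam1a*. Each diet thus held a fish of this kind. In bulk tissue, fewer cells of a type and less RNA per cell cannot be told apart.

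**Figure D2:**
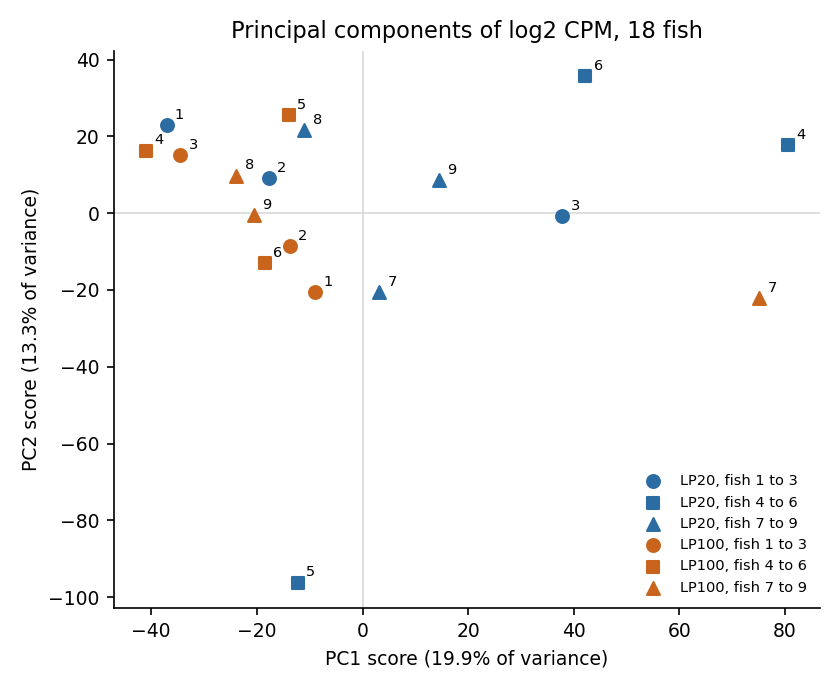
Scores of the 18 fish on the first and second principal component of log2 CPM, coloured by diet, with a symbol for each run of 3 consecutive label numbers and the fish number beside it. LP20 fish 5 lies alone at -96.2 on the second component, while LP20 fish 4 and LP100 fish 7 lie at the right, at 80.5 and 75.1 on the first.

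The main question was which genes differ between the 2 inclusion levels. At a Benjamini-Hochberg adjusted p under 0.05, edgeR's quasi-likelihood test called 0 genes higher in LP100 and 0 genes lower (0% of 29676 in each direction), with a smallest adjusted p of 0.186. At an unadjusted p under 0.05 there were 2239 genes (7.54%), of which 1061 (3.58%) were higher in LP100 and 1178 (3.97%) were lower. The fold changes of all genes were centred on 0, with 14672 genes higher in LP100, 15004 lower and a median log2 fold change of -0.00. The median SE of a log2 fold change was 0.14, and for 26748 genes (90.1%) the whole 95% interval lay within 1 log2 unit of 0, so that for these genes a difference of more than 2-fold lay outside the interval.

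DESeq2 on the same 18 fish called 12 genes, 4 higher in LP100 (0.0166% of the 24058 genes to which it gave an adjusted p) and 8 lower (0.0333%). Without LP20 fish 5, edgeR called 9 genes higher (0.0301% of 29886) and 3 lower (0.01%), and DESeq2 called 122 higher (0.409% of 29821) and 76 lower (0.255%). Of the 12 DESeq2 calls on all 18 fish, 6 were among the 12 edgeR calls without LP20 fish 5. The calls therefore depended on the test and on this library, and the genes that follow are described by their values in each fish. For several of them every LP100 fish lay on one side of the LP20 median. The share of all tested genes with that pattern is not given here. Choosing genes by a small p favours it, so it is a description only. Of the genes tested, 29 had a log2 fold change under -2 and 1 over 2. LP20 fish 5 was the highest fish in 10 of the 29, and LP20 fish 6, the library with the lowest total count, in the other 19, none of which has a RefSeq match. These 19 genes summed to 8578 CPM in LP20 fish 6, to 2941 CPM in LP20 fish 9, to 178 to 584 CPM in the other 7 LP20 fish and to 130 to 412 CPM in the LP100 fish.

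**Figure D3:**
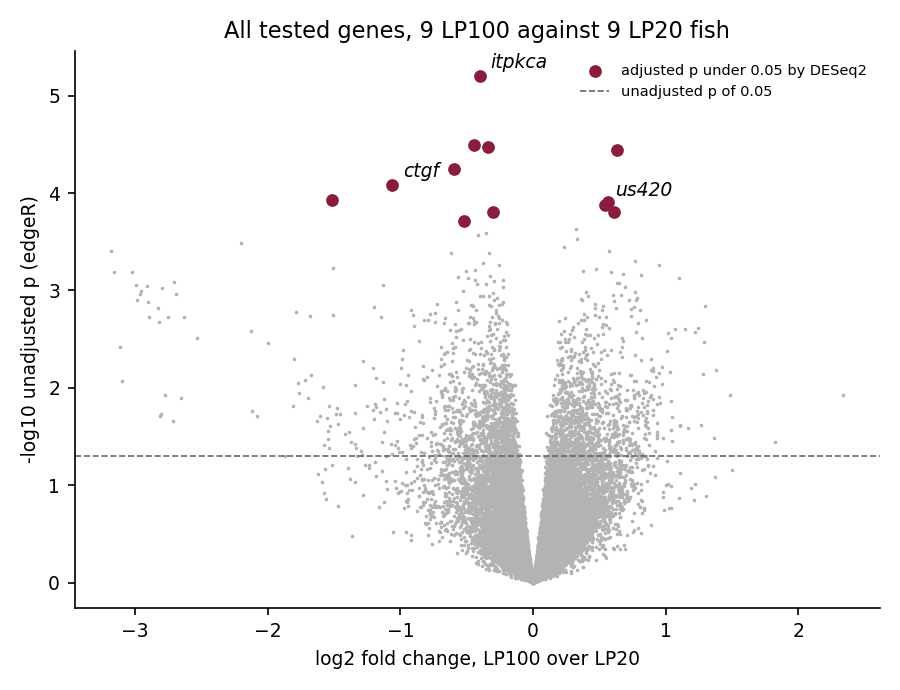
Log2 fold change of LP100 over LP20 against the -log10 unadjusted p of edgeR's quasi-likelihood test, with a point for each of the 29676 genes. The 12 genes with an adjusted p under 0.05 by DESeq2 are dark red, the dashed line is an unadjusted p of 0.05, and no gene passed the adjusted threshold in edgeR.

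The gene with the smallest p was *itpkca*, which encodes an inositol-trisphosphate 3-kinase, an enzyme that phosphorylates the second messenger IP3 and so takes part in calcium signalling. It lies on chromosome 4, positions 50009296 to 50030847 of Ssal_v3.1, on the plus strand. The level was 24.7, 26.7 and 34.1 CPM (lowest, median and highest) in LP20 and 19.3, 21.1 and 22.9 CPM in LP100. All 9 LP100 fish were below all 9 LP20 fish, LP20 fish 5 included, and this was the only gene whose diets did not overlap (0.00337% of the genes tested). With 29676 genes tested and 48620 possible regroupings of the fish, a single gene without overlap can arise by chance. On the log2 scale the fold change was -0.40 ± 0.07 (SE), with an adjusted p of 0.186 by edgeR and 0.0007 by DESeq2, and without LP20 fish 5 it was -0.41 with an adjusted p of 0.0239 by edgeR. Over the 18 fits that each left out 1 fish the log2 fold change stayed between -0.42 and -0.36.

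Exons of a gene on the opposite strand cover 59.4% of the exon length of *itpkca*. That gene, ENSSSAG00000106596, was at 20.3, 24.5 and 33.1 CPM in LP20 and 17.9, 19.6 and 25.8 CPM in LP100. Its log2 fold change was -0.29 ± 0.09 (edgeR adjusted p = 0.54), the same direction as that of *itpkca*. Fragments were counted by strand, and whether some reads of either gene still belong to the other was not tested. A second gene of the same enzyme activity, *ip3ka* on chromosome 9, ranged from 9.79 to 17.2 CPM in LP20 and from 13 to 20.4 CPM in LP100. Its log2 fold change was 0.37 ± 0.10 (edgeR adjusted p = 0.438), in the direction opposite to that of *itpkca*, with 8 of 9 LP100 fish above the LP20 median.

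The gene *ctgf* encodes connective tissue growth factor, a secreted matricellular protein whose transcription is known to respond to TGF-beta and to YAP. It was at 14.9, 25.4 and 50.9 CPM in LP20 and at 6.31, 11.9 and 20.5 CPM in LP100. Every LP100 fish was below the LP20 median and 6 were below every LP20 fish. The log2 fold change was -1.06 ± 0.21, with an adjusted p of 0.409 by edgeR and 0.00391 by DESeq2. In the edgeR fit with gut wall composition (the smooth muscle list minus the brush border list in each fish) as a covariate, it was -1.20 ± 0.13 with an adjusted p of 0.000457, the only call in that fit. In LP20 fish 5 the covariate (-0.935) came mostly from the brush border list (0.782, against -0.154 for smooth muscle), which holds *slc15a1* and *si*. With that fish also left out, the log2 fold change of *ctgf* was -1.18 ± 0.13 (edgeR adjusted p = 0.000971). The collagen gene *col1a1a* and the fibronectin gene *fn1a*, both of the fibroblast and matrix list, had log2 fold changes of 0.35 and 0.28 (edgeR unadjusted p = 0.384 and 0.443). Which cells made *ctgf* was not tested.

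The other DESeq2 calls with a gene symbol or synonym were fewer. The level of *us420* was 9.7, 15.9 and 17.3 CPM in LP20 and 16, 20.2 and 26 CPM in LP100, and 8 LP100 fish were above every LP20 fish. The fitted log2 fold change reached 0.55 ± 0.12 (adjusted p = 0.0184 by DESeq2 and 0.425 by edgeR). LOC106608436, which RefSeq also names IPYR, an inorganic pyrophosphatase, was at 18.1, 21.7 and 26.7 CPM in LP20 and 13.9, 16.1 and 18.9 CPM in LP100. It was below every LP20 fish in 8 LP100 fish, and its log2 value differed by -0.44 ± 0.08 (DESeq2 adjusted p = 0.00423, edgeR 0.269). The remaining 8 calls carry only an Ensembl identifier or a LOC number, and their log2 fold changes were 0.57 to 0.63 in the 3 that were higher and -1.51 to -0.30 in the 5 that were lower. The largest of these, LOC106567948, was at 4.72, 9.95 and 26.4 CPM in LP20 and at 2.66, 4.91 and 8.33 CPM in LP100.

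**Figure D4:**
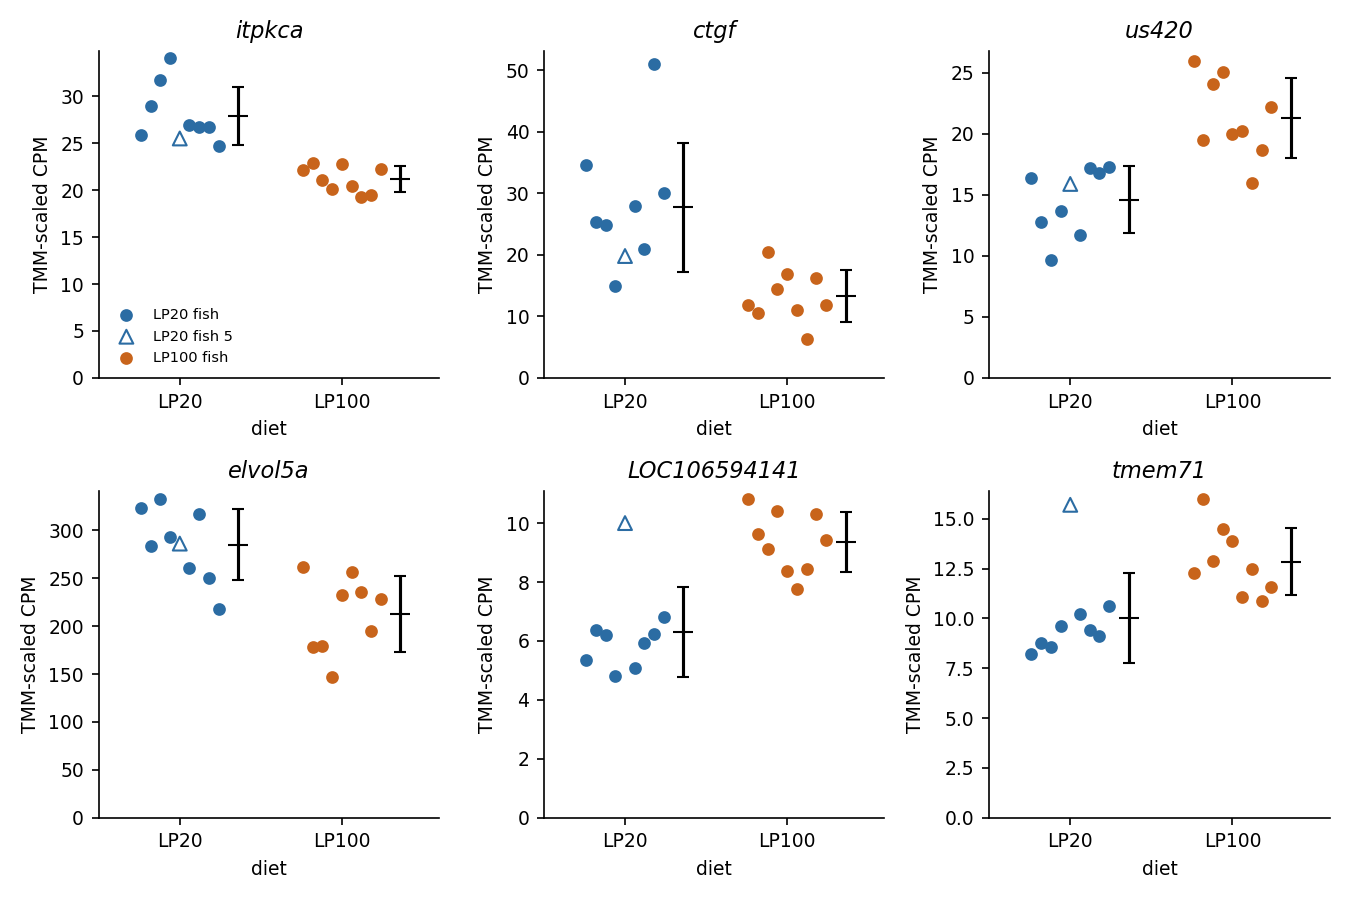
TMM-scaled CPM of 6 genes in each LP20 fish (blue) and LP100 fish (orange), with the mean and SD of 9 fish beside each diet and LP20 fish 5 as an open triangle. *itpkca* is the gene without overlap, and for *LOC106594141* and *tmem71* LP20 fish 5 lies among the LP100 fish and above the other 8 LP20 fish.

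By unadjusted p, the named genes highest in LP100 after *us420* included none that passed the adjusted threshold in edgeR or DESeq2 on the 18 fish, where DESeq2 gave no adjusted p to *atp2a1*, *ubald2* and *myoz1*. The bromodomain gene *brdt*, which reads acetylated histones, was at 8.18, 8.97 and 10.6 CPM in LP20 and 9.89, 11.6 and 13.1 CPM in LP100. The repressor *mntb*, a partner of MAX and antagonist of MYC, was at 9.66, 11.6 and 13 CPM and at 11.9, 14.7 and 16.8 CPM. In both genes all 9 LP100 fish were above the LP20 median. The cytoskeletal GTPase *septin9b* had a log2 fold change of 0.24 ± 0.06, the guanine nucleotide exchange factor *dock10* of 0.62 ± 0.17 and the phosphatase *ppm1h* of 0.53 ± 0.15 (edgeR adjusted p = 0.438 each). The calcium pump *atp2a1* (0.67 ± 0.17) and the Z-disc gene *myoz1* (1.15 ± 0.33), both known from striated muscle, were at medians of no more than 2.46 CPM in either diet, and exons on the other strand cover 41% of the exon length of *myoz1*. Without LP20 fish 5, DESeq2 called *septin9b* (adjusted p = 0.0112), *ubald2* (0.0114, log2 fold change 1.03), *mntb* (0.0372), *dock10* (0.0375), *myoz1* (0.0375) and *brdt* (0.0487), while *ppm1h* (0.0662) and *atp2a1* (0.102) did not pass.

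The named genes lower in LP100 with the smallest p after *itpkca* and *ctgf* are given next, and none of them passed the adjusted threshold in either test on the 18 fish. The fatty acid elongase *elvol5a*, which lengthens polyunsaturated fatty acids, was at 218, 286 and 332 CPM in LP20 and at 147, 228 and 262 CPM in LP100. The lysosomal acid lipase gene *lich*, which releases fatty acids and cholesterol from esters, was at 6.57, 9.03 and 29.8 CPM and at 2.76, 5.21 and 8.58 CPM. For both genes every LP100 fish was below the LP20 median, and the highest value of *lich* was that of LP20 fish 5. The log2 fold change was -0.42 ± 0.11 for *elvol5a* and -1.13 ± 0.29 for *lich* (edgeR adjusted p = 0.438 each), and without LP20 fish 5 it was -0.42 and -0.82, where DESeq2 called both (adjusted p = 0.0495 and 0.0388). The pantothenate kinase *pank1a*, the entry step to coenzyme A, was at 61, 80.7 and 100 CPM in LP20 and at 49.7, 63.9 and 76.3 CPM in LP100.

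The claudin *cldn34a*, a member of the family that seals tight junctions, was at 29.8, 40.7 and 62.7 CPM in LP20 and at 17.7, 27.5 and 36.9 CPM in LP100. The heparan sulfate endosulfatase *sulf1* was at 16.7, 22 and 23.4 CPM and at 14.1, 17.5 and 20.1 CPM. Their log2 fold changes were -0.57 ± 0.14 and -0.33 ± 0.08 (edgeR adjusted p = 0.438 each). The chloride channel gene *clcc1* (-0.29 ± 0.07), the transcription factor *ubp1* (-0.35 ± 0.09) and the aminopeptidase *dnpep* (-0.53 ± 0.14) had the same adjusted p. Without LP20 fish 5, DESeq2 called *sulf1* (log2 fold change -0.36, adjusted p = 0.0101) and *dnpep* (-0.38, adjusted p = 0.0112), and its adjusted p was 0.0552 for *cldn34a*, 0.0701 for *clcc1*, 0.0746 for *ubp1* and 0.0872 for *pank1a*.

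Most tested members of the lipid lists were lower in LP100, without a call in edgeR or DESeq2. The sterol synthesis list holds enzymes from *hmgcs1* to *sc5d* and their regulator *srebf2*. Most of its 25 symbols had no tested gene. All 11 tested members were lower in LP100, with a median log2 fold change of -0.20, against -0.00 over all genes. No member passed the adjusted threshold, 2 had an unadjusted p under 0.05 (3.97% of all genes did in this direction), and without LP20 fish 5 the median was -0.30 with 4 such members (4.94% of all genes then).

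Lanosterol synthase, *lss*, closes the sterol ring. It was at 26.5, 70.2 and 90.3 CPM in LP20 and at 29.3, 44.3 and 75.1 CPM in LP100, where 8 of 9 fish were below the LP20 median, and the diets overlapped widely. The log2 fold change was -0.53 ± 0.21 (edgeR adjusted p = 0.577), and -0.63 without LP20 fish 5, the lowest LP20 fish (adjusted p = 0.213). Acetoacetyl-CoA thiolase, *acat2*, had a log2 fold change of -0.18 ± 0.09. The summed CPM of the list ranged from 334 to 774 in LP20 and from 334 to 829 in LP100, so single fish of either diet spanned the whole range.

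In the fatty acid synthesis list 5 of 6 tested members were lower (median -0.24, and -0.24 without LP20 fish 5). The reductase *tecrb*, the last step of very long chain elongation, was at 33.7, 37.9 and 45.4 CPM in LP20 and at 27.2, 31.1 and 38.1 CPM in LP100, with 6 LP100 fish below every LP20 fish. Malic enzyme, *me1*, which supplies NADPH, was at 128, 178 and 270 CPM and at 85.5, 122 and 187 CPM. Their log2 fold changes were -0.26 ± 0.07 and -0.50 ± 0.16 (edgeR adjusted p = 0.438 and 0.517).

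In the list of fatty acid oxidation and PPAR genes, which burn fatty acids, 16 of 18 tested members were lower, with a median of -0.11. No member passed the adjusted threshold, and 3 had an unadjusted p under 0.05 (3.97% of all genes did in this direction), against 1 without LP20 fish 5 (4.94% of all genes then). The lipid sensor *pparg* was at 16.2, 20 and 28 CPM in LP20 and at 16.3, 18.7 and 21.1 CPM in LP100. Its log2 fold change was -0.19 ± 0.09 (edgeR unadjusted p = 0.0414, adjusted p = 0.644) and -0.14 without LP20 fish 5, the highest LP20 fish. The isomerase *ech1* had a log2 fold change of -0.15 ± 0.07.

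The oxidative phosphorylation list, subunits of the respiratory chain and ATP synthase, was lower in 18 of 19 tested members with a median of -0.07. It held 5 members with an unadjusted p under 0.05, all lower (3.97% of all genes did in this direction), and 6 without LP20 fish 5 (4.94%). The complex I subunit *ndufb3* was at 28, 32.3 and 35.2 CPM in LP20 and at 25, 28.6 and 32.9 CPM in LP100. The succinate dehydrogenase subunit *sdha* was at 65.4, 73 and 81.7 CPM and at 54.3, 65.9 and 77.7 CPM. The log2 fold changes were -0.17 ± 0.06 and -0.18 ± 0.07 (edgeR adjusted p = 0.54 and 0.562), and the diets overlapped in both.

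Of the genes that take up and export lipid, 7 of 9 tested were lower (median -0.18, and -0.12 without LP20 fish 5). The acyltransferase *dgat1a*, the last step of triglyceride synthesis, was at 57.6, 66.1 and 85.5 CPM in LP20 and at 43.8, 59.1 and 65.7 CPM in LP100. This gave a log2 fold change of -0.30 ± 0.10, and -0.32 without LP20 fish 5 (edgeR adjusted p = 0.54 and 0.266). Apolipoprotein E, *apoea*, had a log2 fold change of -0.77 ± 0.33 that was -0.23 without LP20 fish 5, which held 5227 CPM against 624 to 1532 in the other 8 LP20 fish.

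In the brush border list of enterocytes 12 of 16 members were lower with a median of -0.09, and -0.04 without LP20 fish 5. The members with the largest values, *slc15a1* (-2.80) and *si* (-1.14), were 1.02 and 0.08 without it, and exons on the other strand cover 44.8% of the exon length of *si*. The scaffold gene *slc9a3r1* (NHERF1) was at 205, 223 and 250 CPM in LP20 and at 227, 243 and 300 CPM in LP100, a log2 fold change of 0.18 ± 0.06 (edgeR adjusted p = 0.54). The neutral amino acid transporter *slc6a19* had -0.36 ± 0.14, and -0.26 without LP20 fish 5.

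The lysosome-rich enterocytes take up whole proteins through cubilin. In their list 10 of 11 members were lower, with a median of -0.07, and all 11 without LP20 fish 5, with a median of -0.11. Of these, 2 then had an unadjusted p under 0.05 (4.94% of all genes were lower at that p). Cubilin, *cubn*, was at 2484, 3672 and 4023 CPM in LP20 and at 2694, 3324 and 4012 CPM in LP100. The difference, -0.11 ± 0.10, was about as large as its SE (edgeR adjusted p = 0.826). Without LP20 fish 5, the lowest LP20 fish, it was -0.16 ± 0.08 (edgeR unadjusted p = 0.0538, adjusted p = 0.483). The cathepsin *ctsz* had -0.22 ± 0.15, and -0.28 ± 0.14 without LP20 fish 5 (edgeR unadjusted p = 0.0563, adjusted p = 0.488).

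Transporters of amino acids and peptides were lower in 11 of 16 tested genes (median -0.09), and *slc7a7*, the exit route for cationic amino acids, had a log2 fold change of -0.64 ± 0.25 that was -0.29 without LP20 fish 5. Secretory and nerve-related lists held few tested genes. For the goblet cell chaperone *agr2* the log2 fold change was -0.14 ± 0.17, for the granule protein *sytl2a* 0.06 ± 0.16, for the neuropeptide gene *tac1* -0.25 ± 0.20 and for peptide YY, *pyy*, -0.32 ± 0.28, all within 2 SE of 0.

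Among immune cells, the T cell list has 19 symbols, most of them without a tested gene. Its 5 tested genes were all higher in LP100, with a median log2 fold change of 0.24 and 1 unadjusted p under 0.05 (3.58% of all genes were higher at that p). Without LP20 fish 5 the median was 0.35 with 3 such members (5.55% of all genes then were higher at that p). The T cell receptor component *cd3e* was at 17.1, 20.7 and 36.1 CPM in LP20 and at 22.5, 25.7 and 37.5 CPM in LP100. All 9 LP100 fish were above the LP20 median, and the highest LP20 value was that of LP20 fish 5, the next being 26.8. The log2 fold change was 0.24 ± 0.13 (edgeR adjusted p = 0.699), and 0.35 without LP20 fish 5 (adjusted p = 0.203).

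The type 1 helper regulator *tbx21* (T-bet) was at 1.15, 1.29 and 3.19 CPM in LP20 and at 1.43, 2.52 and 3.17 CPM in LP100. Again all 9 LP100 fish were above the LP20 median, and the log2 fold change was 0.49 ± 0.21 (edgeR adjusted p = 0.604), and 0.66 without LP20 fish 5 (adjusted p = 0.198). The defining coreceptor *cd8a* had 0.14 and the regulatory T cell gene *foxp3b* 0.24 (edgeR unadjusted p = 0.575 and 0.165).

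The B cell list, of 14 symbols, was even, with 2 of 4 tested members higher and a median of -0.00. The B cell receptor component *cd79b* was at 6.7, 8.58 and 17 CPM in LP20 and at 8.4, 11.7 and 18.5 CPM in LP100, a log2 fold change of 0.40 ± 0.17, and 0.55 without LP20 fish 5 (edgeR adjusted p = 0.605 and 0.15, DESeq2 0.489 and 0.0315). Exons on the other strand cover 40.2% of its exon length, and its symbol rests on a shared span of 0.517. The adaptor *blnk* had -0.12 ± 0.10. The list of macrophage and granulocyte genes had 8 of 10 members higher (median 0.13), among them the collagenase *mmp13* (0.61 ± 0.33) and the transcription factor *cebpb* (0.28 ± 0.13). Exons on the other strand cover 75.1% of the exon length of *mmp13*.

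In the list of receptors and signal carriers for bacterial products 11 of 14 members were higher, with a median of 0.07 and none past the adjusted threshold, and 13 of 14 without LP20 fish 5, with a median of 0.13. The NF-kB subunit gene *nfkb2* was at 14.5, 16.8 and 24.8 CPM in LP20 and at 17.7, 21.3 and 22.5 CPM in LP100. All 9 LP100 fish were above the LP20 median, at a log2 fold change of 0.21 ± 0.09 (edgeR adjusted p = 0.591) and of 0.28 without LP20 fish 5 (adjusted p = 0.162). *tlr21*, a receptor of fish for unmethylated DNA, ran the other way at -0.47 ± 0.23, with all 9 LP100 fish below the LP20 median. *tlr2*, the receptor for lipoteichoic acid and lipopeptides, had 0.06 ± 0.35, and its adaptor *myd88* -0.02 ± 0.11 (edgeR unadjusted p = 0.854 and 0.834). The level of *tlr2* was low, at means of 0.975 CPM in LP20 and 0.983 CPM in LP100, so its fold change is imprecise.

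Cytokine and receptor genes had 5 of 12 members higher and a median of -0.04. The chemokine receptor *cxcr3*, found on activated T cells, was at 1.41, 2.7 and 4.25 CPM in LP20 and at 1.22, 1.96 and 2.6 CPM in LP100. All 9 LP100 fish were below the LP20 median, with a log2 fold change of -0.65 ± 0.20, opposite in direction to *cd3e* and *tbx21* (edgeR adjusted p = 0.508, DESeq2 0.232). Without LP20 fish 5 it was -0.74, and DESeq2 called it (adjusted p = 0.0294). The macrophage growth factor *il34* had -0.21 ± 0.12. Annexin A1, *anxa1*, a mediator that limits inflammation, was at 27, 47.2 and 74.6 CPM in LP20 and at 32.6, 43.7 and 52.1 CPM in LP100, a log2 fold change of -0.08 ± 0.16 (edgeR adjusted p = 0.929).

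The interferon list was lower in 10 of 12 members, with a median of -0.18, and -0.12 without LP20 fish 5. The peptide loading gene *tapbp* had -0.20 ± 0.10 and the interferon signalling factor *irf9* -0.13 ± 0.07 (edgeR adjusted p = 0.671 and 0.695). The antiviral gene *mx2* had -0.53 (edgeR unadjusted p = 0.134). No member had an unadjusted p under 0.05.

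The TGF-beta and BMP list was higher in 11 of 14 members, with a median of 0.10. The ligand *bmp2* was low in both diets, at 0.0759, 0.43 and 1.19 CPM in LP20 and at 0.704, 1.05 and 2.03 CPM in LP100. All 9 LP100 fish were above the LP20 median. The log2 fold change was 0.97 ± 0.34 (edgeR adjusted p = 0.54). The ligand *tgfb1a* was at 5.31, 6.53 and 8.12 CPM and at 5.44, 7.65 and 9.41 CPM, a log2 fold change of 0.20 ± 0.12 (edgeR adjusted p = 0.727). The corepressor *tgif1* had 0.25 ± 0.13, with exons on the other strand over 66.2% of its exon length.

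In the fibroblast and matrix list 7 of 8 members were higher with a median of 0.33, and its summed CPM ranged from 80.1 to 738 in LP20 and from 74.8 to 608 in LP100. Lumican, *lum*, had a log2 fold change of 0.47 ± 0.37 and the gelatinase *mmp2* 0.43 ± 0.29 (edgeR adjusted p = 0.787 and 0.762), and no member of the list had an unadjusted p under 0.05. Of the endothelial genes 4 of 6 were higher. The clotting factor gene *vwf* was at 0.253, 2.55 and 10.1 CPM in LP20 and at 0.473, 1.77 and 4.14 CPM in LP100 (log2 fold change -1.12 ± 0.48), while the adhesion gene *pecam1a* had 0.42 ± 0.38.

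The smooth muscle list had a median of 0.08, with 5 of 6 members higher, and *smtnb* and *smtna*, which encode the contractile protein smoothelin, had 0.11 ± 0.08 and 0.24 ± 0.24. The receptor *kita* of pacemaker cells had 0.03 ± 0.12, and the fat droplet genes *cidec* and *plin1* had 0.09 ± 0.28 and 0.12 ± 0.58. The haem synthesis gene *alas2* of red blood cells had -0.77 ± 0.29, with all 9 LP100 fish below the LP20 median. Apart from the fits with gut wall composition as a covariate, the parts of these cell types in the other differences were not tested.

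Tight junction and adhesion genes were higher in 13 of 16 members, with a median of 0.07, and 1 higher member had an unadjusted p under 0.05 (3.58% of all genes did in this direction). That gene, the desmosome component *dspa*, was at 283, 314 and 353 CPM in LP20 and at 298, 351 and 428 CPM in LP100 (log2 fold change 0.17 ± 0.07, edgeR adjusted p = 0.587). The junction protein *jam2a* had 0.28 ± 0.16. The large scaffold *tjp1b* (ZO-1) had 0.27 and the cadherin *cdh17* -0.10 (edgeR unadjusted p = 0.256 and 0.14). The level of *tjp1b* was low, at means of 2.42 CPM in LP20 and 2.95 CPM in LP100. Its paralog *tjp1a*, at means of 30.4 and 33.3 CPM, had 0.13 (edgeR unadjusted p = 0.114). The claudin *cldn34a*, lower in LP100 at -0.57 ± 0.14, is not in this list.

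The remaining lists had medians between -0.09 and -0.03. In the immediate early list the antiproliferative gene *btg2* was at 46.5, 61.4 and 82 CPM in LP20 and at 33.3, 48.6 and 56.1 CPM in LP100, with all 9 LP100 fish below the LP20 median and a log2 fold change of -0.38 ± 0.12 (edgeR adjusted p = 0.54). The stress factor *atf3* had -0.45 ± 0.19. Of the cell cycle list 9 of 25 members were higher, and the replication helicase subunit *mcm3* had -0.27 ± 0.12 and the spindle gene *prc1b* 0.29 ± 0.18. The antioxidant regulator *nfe2l2a* (0.14 ± 0.06) and the aryl hydrocarbon receptor *ahr2b* (0.26 ± 0.12) were on the higher side of a list with 10 of 14 members lower.

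Genes of protein folding stress had 5 of 20 members higher, with *sel1l* of ER-associated degradation at -0.18 ± 0.09 and the stress factor *atf4* at 0.13 ± 0.07. In the clock list *npas2* had -0.26 ± 0.15 and *per1b* 0.25 ± 0.20. In the list of lysosome and autophagy genes the autophagy regulator *becn1* had 0.12 ± 0.06, and the proton pump subunit *atp6v1ab* -0.30 ± 0.12, which without LP20 fish 5 was -0.38 ± 0.08 (edgeR adjusted p = 0.0864, DESeq2 0.00328).

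**Figure D5:**
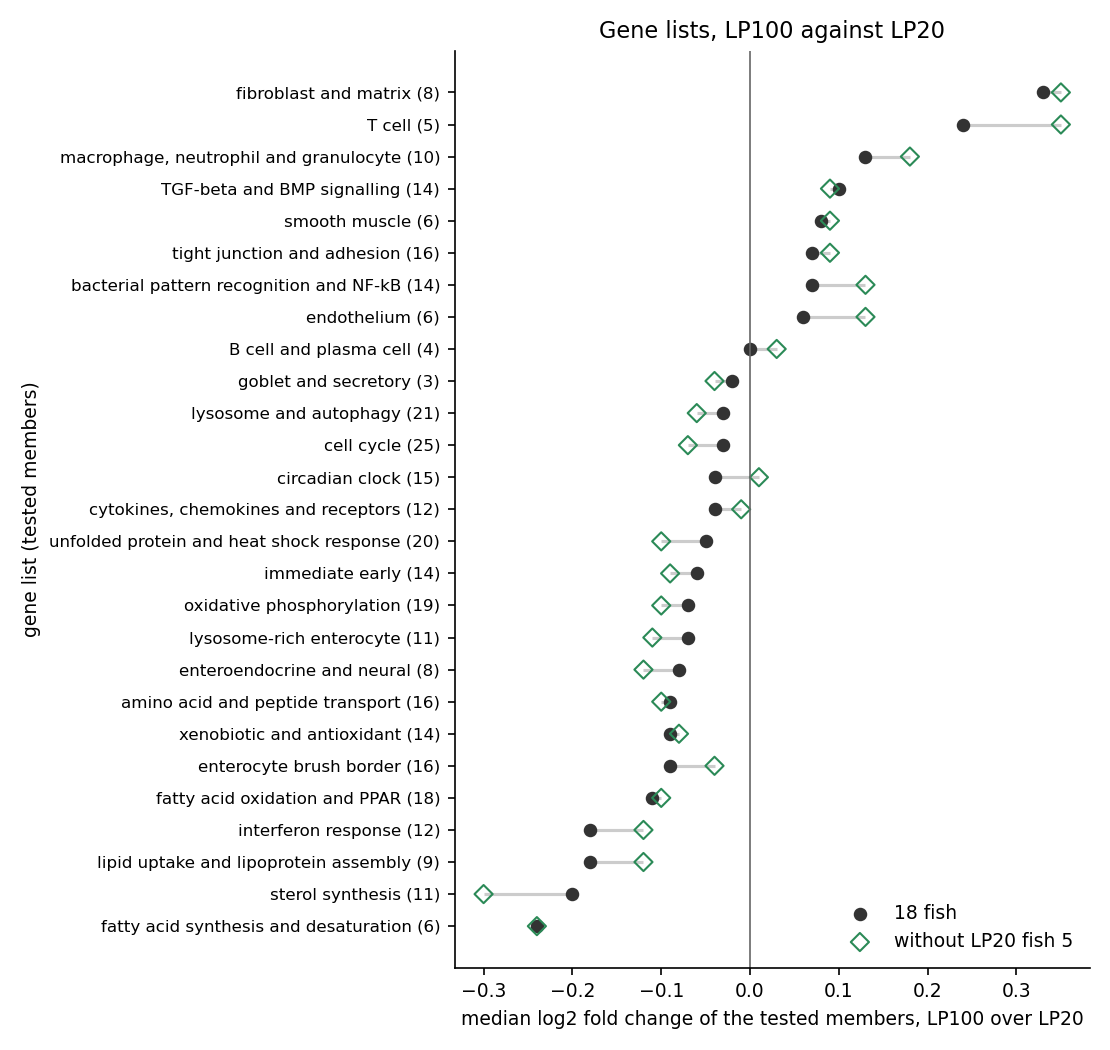
Median log2 fold change of LP100 over LP20 for each gene list with at least 3 tested members (number in brackets), over 18 fish (dots) and without LP20 fish 5 (diamonds). Medians run from -0.24 for fatty acid synthesis to 0.33 for fibroblast and matrix, and the median over all genes is -0.00.

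The genes that appeared on leaving out LP20 fish 5 formed a further set, which was looked at after the values had been seen. Of the 122 genes DESeq2 then called higher in LP100, 32 carry a symbol that is no LOC number, and of the 76 lower genes 16 do. The 10 with the smallest p in each direction are described here, apart from those already given. In the 9 higher genes described here, LP20 fish 5 had the highest value of all LP20 fish, and in the lower genes *misp*, *nr2c2ap*, *dok7b* and *lrpap1* it had the lowest. Selecting genes by leaving this fish out favours such values, so they are a description only.

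The class I myosin *myo1f*, a motor protein of neutrophils and other leukocytes, was at 12.2, 14.7 and 16.3 CPM in the 8 LP20 fish other than fish 5, at 25.7 CPM in fish 5 and at 16.2, 19.5 and 22.8 CPM in LP100. The log2 fold change was 0.29 over 18 fish and 0.41 ± 0.08 over 17 (edgeR adjusted p = 0.564 and 0.0674, DESeq2 0.00127 over 17). For *tmem71* the 8 LP20 fish were at 8.24, 9.27 and 10.6 CPM, fish 5 at 15.7 CPM and the LP100 fish at 10.9, 12.5 and 16 CPM. Here the 8 LP20 fish and the 9 LP100 fish did not overlap, which held in 14 genes in this direction (0.0472%) and in 3 in the other (0.0101%).

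The receptor *p2ry10*, which in mammals is found on lymphocytes, was at 6.15, 7.13 and 8.89 CPM in the 8 LP20 fish, 12 CPM in fish 5 and 8.02, 10.4 and 11.8 CPM in LP100. The NF-kB inhibitor *nfkbie*, itself a target of NF-kB, was at 6.68, 8.13 and 9.86 CPM in the 8 LP20 fish, 13.9 CPM in fish 5 and 9.07, 10.9 and 13.9 CPM in LP100. Their log2 fold changes over 17 fish were 0.51 ± 0.10 and 0.46 ± 0.10 (DESeq2 adjusted p = 0.00223 and 0.00617, edgeR 0.0688 and 0.0913). The vault protein gene *parp4* was at 101, 133 and 144 CPM in the 8 LP20 fish, 207 CPM in fish 5 and 145, 156 and 192 CPM in LP100. The Ras and Rac inhibitors *ngap* and *arhgap15* had 0.54 ± 0.11 and 0.51 ± 0.11, the sodium pump regulator *fxyd5a* 0.57 ± 0.12 and *si:dkey-81j8.6* 0.62 ± 0.12.

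Of the lower genes in this set, the actin-binding *misp* was at 67.9, 78.3 and 84.9 CPM in the 8 LP20 fish, 42.8 CPM in fish 5 and 54, 60 and 72.8 CPM in LP100. The chaperone *lrpap1*, which escorts receptors of the LDL receptor family such as megalin to the cell surface, was at 170, 199 and 252 CPM in the 8 LP20 fish, 104 CPM in fish 5 and 119, 159 and 200 CPM in LP100. Their log2 fold changes over 17 fish were -0.33 ± 0.06 and -0.36 ± 0.09 (DESeq2 adjusted p = 0.001 and 0.0375, edgeR 0.0688 and 0.15). For *lrpap1* exons on the other strand cover 52.9% of the exon length. The adaptor *dok7b* and the receptor-associated *nr2c2ap* had -0.40 ± 0.10 and -0.45 ± 0.10.

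The edgeR calls without LP20 fish 5 were *itpkca* and 11 genes with an Ensembl identifier or a LOC number. The pair with the smallest adjusted p were ENSSSAG00000120445 and LOC106594141, both 0.00839, with log2 fold changes of 0.74 and 0.68. LOC106594141, on chromosome 26, was at 4.81, 6.06 and 6.82 CPM in the 8 LP20 fish, at 10 CPM in fish 5 and at 7.78, 9.41 and 10.8 CPM in LP100. The 9 genes that were higher had log2 fold changes of 0.45 to 0.74, and in each LP20 fish 5 lay above all of the other 8 LP20 fish. Here too the selection without this fish favours that place.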

How the data were processed

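RNA of the distal intestine of 18 salmon was analysed, 9 per diet. The authors used the nf-core rnaseq pipeline, v3.3, with paired reads and the assembly Ssal_v3.1. Fragments on each Ensembl gene were counted by strand (featureCounts v1.5.1, reverse-stranded), and the deposited values are these raw counts, not normalized. The file headers show no option to count reads that map to several places, so near-identical copies of duplicated salmon genes may be undercounted. The minimum RIN of the RNA is 8 in the methods and 7 in the labels. The labels give fish numbers, diets and tissue, and doses come from the methods.

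Genes were filtered (filterByExpr), scaled by TMM and tested in R v4.3.3 with edgeR v4.0.16, a quasi-likelihood fit of the 18 fish with diet as the only factor and Benjamini-Hochberg adjustment over all 29676 genes tested at 0.05. CPM are TMM-scaled, log2 CPM used a prior count of 2, and CPM are not corrected for gene length, so levels were not compared between genes. At the lowest total of tested genes, 9627647, a gene at 1 CPM has 9.63 counts. DESeq2 v1.42.0, limma v3.58.1 (voom), other filters, scaling, fish left out and covariates were alternatives. No library appeared under 2 labels, since counts differed by a chi-square of at least 7.96 per gene in each of 153 pairs of fish. Scripts were tested on simulated counts.

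Symbols came from RefSeq genes of the same assembly by position (at least 0.5 of the joint span), which matched 30322 of 69389 genes, 8775 of them to a symbol that is no LOC number, and 4728 genes matched after a shift of 100000 bp. Of the genes tested, 21183 had a match and 6769 such a symbol. Named are the 10 genes with a symbol and the smallest unadjusted p in each direction, the 2 members of each list with the smallest p, matched genes of products the paper measured or names, its pathway terms included (those of tgfb3, tgfb2, ighm, il1b and cdh1 were not analysed here), up to 5 DESeq2 calls in each direction and genes whose diets did not overlap, while every other gene named was chosen after its values were seen. The comparison and the 31 gene lists were chosen with earlier results of these data known. List symbols without a matched and tested gene dropped out, so each list covers at most a part of its cell type or pathway. No sequence was printed, since no genome of the assembly was used here.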

Additional observations from a re-analysis of the deposited data

Results flagged for a closer look

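Each diet's 9 values of 108 named genes, of the first 2 principal components and of the posterior Hox and proximal gut sums were searched for a fish whose gap to its nearest neighbour exceeded 0.493 of the diet's whole range. Of 224 sets of 9 values, 46 held such a fish. Chance flags about 1 in 20, but many of these genes were chosen because leaving out LP20 fish 5 made them calls, and the Hox and proximal gut lists were written after that fish had been seen, so the number of flags is a description and cannot be read against that rate. LP20 fish 5 was that fish in 33 of them, other LP20 fish in 3 and LP100 fish in 10.

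LP20 fish 5 stood alone with a second component score of -96.2 and a proximal gut sum of 11643 CPM. It had the highest LP20 level of *ubald2* (2.15 CPM), *lich* (29.8), *dnpep* (27.5), *slc6a19* (462), *sytl2a* (14.4), *apoea* (5227), *tapbp* (46.2) and *slc7a7* (83.1). Among genes of lymphocytes it was the highest LP20 fish for *tbx21* (3.19 CPM) and *cd79b* (17). It was the lowest for *cubn* (2484 CPM), *atp6v1ab* (53.9) and *misp* (42.8).

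Some of the genes called by edgeR or DESeq2 on leaving this fish out, such as *itpkca* and *ctgf*, were not flagged. Others were flagged for the same library. Among those with a symbol it was highest for *myo1f* (25.7 CPM), *tmem71* (15.7), *p2ry10* (12), *si:dkey-81j8.6* (27.6), *ngap* (25.4), *fxyd5a* (12.7), *parp4* (207), *nfkbie* (13.9) and *arhgap15* (12.8). Among the others it was highest for ENSSSAG00000120445 (29.5 CPM), LOC106594141 (10), LOC106587590 (11.3), LOC106592135 (33.4), LOC106573028 (18.6), LOC106575091 (16.8), ENSSSAG00000087151 (22.8), LOC106583643 (21.1) and LOC106588209 (15.6). For some of these genes, values with and without this fish are given above.

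Of the other LP20 fish, fish 1 was highest for the matrix gelatinase *mmp2* (45.4 CPM), fish 8 highest for *irf9* (44.4) and fish 4 lowest for *mcm3* (19.1). LP100 fish 7 stood apart on the first component (75.1), was lowest for *smtna* (5.12 CPM) and highest for ENSSSAG00000073870 (60.2). LP100 fish 4 was highest for *cd3e* (37.5 CPM), *per1b* (19) and LOC106587590 (16). LP100 fish 5 was highest for *lss* (75.1 CPM) and for ENSSSAG00000068702 (183). LP100 fish 6 was highest for *atf3* (22.3 CPM) and LP100 fish 9 lowest for *smtnb* (61.9).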

How the results depend on the processing

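In edgeR the calls stayed at 0 in each direction with all 45 fish in the fit, DESeq2 size factors, no filter or a filter of 1 CPM, counts summed per label run, and in limma-voom with the label run as a random block or 1 weight per diet. Higher and lower calls were 4 and 8 by DESeq2 on the 18 fish, 2 and 11 by DESeq2 on 45 fish, 4 and 18 by edgeR's likelihood ratio test and 2 and 2 by limma-voom with sample quality weights. In DESeq2 on 45 fish and in the likelihood ratio test, several lower calls had log2 fold changes under -2, among them ENSSSAG00000101611 (-3.21 and -3.20). Every gene under -2 in the main fit was highest in LP20 fish 5 or 6. Higher and lower calls were 0 and 1 with composition as covariate and 2 and 0 with the posterior Hox level as covariate. With composition as covariate and LP20 fish 5 left out they were 12 and 6. Leaving out each fish or label run in turn gave 0 to 9 and 0 to 3 calls in edgeR, all of them without LP20 fish 5. In DESeq2 leaving out each fish gave 1 to 122 and 7 to 76. Its higher calls were 10, 12, 1, 2, 8 and 8 without LP20 fish 1, 2, 4, 6, 8 and 9, and 2, 11, 7, 22 and 7 without LP100 fish 1, 5, 6, 7 and 9. Its lower calls were 15, 24 and 14 without LP20 fish 1, 2 and 9, and 15, 13, 21 and 15 without LP100 fish 2, 5, 7 and 9. The cause was not tested.

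The DESeq2 fits that each left out 1 fish are not among the 38 alternatives summarised next, and their calls are given above. Of 4101 log2 fold changes (108 of the named genes, 38 alternatives), 28 in 6 genes turned sign and 61 in 19 genes passed the threshold. The 6 genes were *sytl2a* (-0.05 to 0.26 with fish or runs left out), *pyy* (-0.54 to 0.11), *anxa1* (-0.23 to 0.15), *kita* (-0.02 to 0.10, and -0.01 with quality weights), *cidec* (-0.12 to 0.27, -0.06 with quality weights, -0.04 with the run block and -0.04 with 1 weight per diet) and *plin1* (-0.33 to 0.81, -0.02 with composition and -0.04 with composition and LP20 fish 5 left out). The 108 do not hold every gene named above, and genes outside them turned sign too. Without LP20 fish 5, *slc15a1* went from -2.80 to 1.02, *si* from -1.14 to 0.08 and *myd88* from -0.02 to 0.01. These changes are not in the counts of this paragraph. All 1140 medians of the 30 lists moved by less than the spread between fish, which does not test whether a median is stable. Without LP20 fish 5 the circadian clock median went from -0.04 to 0.01 and the brush border median from -0.09 to -0.04. The sterol synthesis median went from -0.20 to -0.30 and the T cell median from 0.24 to 0.35, while that of fatty acid synthesis stayed at -0.24. The posterior Hox, DESeq2 leave-one-out, DESeq2 on 45 fish, diet weight and combined alternatives were chosen after seeing the data.

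No paired analysis was possible because fish of different diets carry different numbers. The consensus correlation within label runs was -0.053, and neither source ties a run to a tank.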
